A study of Rattus norvegicus with 12 samples.

Results

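The genes described here carry vitamin A through the rat uterus: they bind retinol, turn it into retinoic acid, or receive the retinoic acid signal. They were taken by name as a list of 9 genes: Rbp2, Rbp4, Crabp1, Crabp2, Stra6, Aldh1a1, Aldh1a2, Rara and Rarb. Of these, 8 have a row among the 16493 genes of the deposited files, and all 8 are among the 10279 genes tested. Rarb is not analysed here. RNA from uteri of Sprague-Dawley rats without ovaries was sequenced at postnatal day (PND) 65, in 4 groups of 3 libraries. CAS rats ate a casein diet and SPI rats a diet of soy protein isolate, in both cases from PND30, and all rats were ovariectomized at PND50. CAS-E2 and SPI-E2 rats ate the same diets and received 17β-estradiol (E2, the main ovarian estrogen) at 5 μg/kg/d from a subcutaneous osmotic minipump, whose vehicle, polyethylene glycol, the CAS and SPI groups received. The study's methods give these days, while its summary of the design gives a shorter feeding period. Each library was 1 pool of equal RNA from 2 whole uteri, so each group stands on 6 uteri and each error given is between pools. Libraries of a group were combined on the flow cell, so lane and group cannot be told apart.

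Retinol reaches tissues on the plasma protein RBP4 and enters cells through the membrane receptor STRA6. Inside the cell it is held by cellular retinol-binding proteins, oxidised first to retinal and then, by the ALDH1A enzymes, to retinoic acid. Retinoic acid is carried by CRABP1 and CRABP2 and acts through the nuclear receptors RAR and RXR, and in the uterus it is known for its part in the growth and differentiation of epithelium and in the preparation of the stroma for implantation.

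Under E2 on the casein diet, Rbp2, Crabp2 and Aldh1a2 were higher than in CAS, and Crabp1 and Aldh1a1 were lower. On the soy diet, E2 left Rbp2 and Crabp2 higher than in SPI and Rbp4 lower. Soy without E2 changed none of the 8 past the test, and neither did soy added to E2. The test asked for an adjusted p under 0.05 (limma over all 12 libraries, Benjamini-Hochberg over 10279 genes) and for a change of at least 2-fold on the log2(FPKM + 1) scale. FPKM is the number of fragments scaled by transcript length and by the mapped reads of the library, so levels are per length and per depth, and the added 1 makes the fold changes of low genes smaller than those of the FPKM themselves. By this rule 5 of 8 genes were called in CAS-E2 against CAS, 3 higher and 2 lower, where 14.4% of all genes tested were called (7.99% higher and 6.37% lower). In SPI-E2 against SPI, 2 were higher and 1 lower, against 10.2% of all genes (8.39% and 1.86%). Rbp2 was at 0 without E2 and passed the filter on low values only through the E2 libraries, so it had to differ and its call is no support. Of the other 7 genes, 2 were higher and 2 lower on casein, and 1 was higher and 1 lower on soy.

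**Figure D1:**
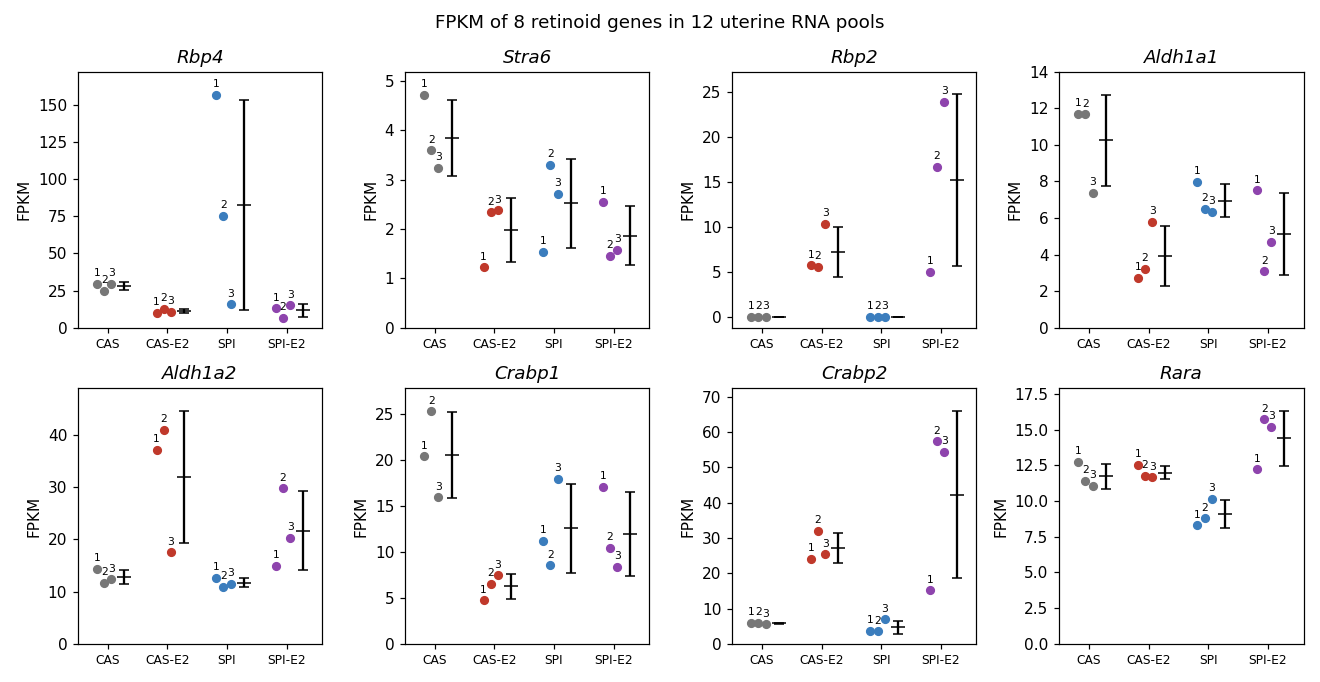
FPKM (y axis, linear, a scale of its own in each panel) of the 8 genes in the 3 pools of each of the 4 groups (x axis). Points are pools, numbered by replicate, and the black marks are the group mean with its SD (n = 3). Rbp2 sits at 0 in all 6 pools without E2, Crabp2 lies higher in all 6 pools with E2 than in any without, and Rbp4 spreads from 15.6 to 157 FPKM in SPI.

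Each library held between 6353210 and 9862180 mapped reads, as worked out from the files. The tissue label held against its markers: summed over 7 smooth muscle markers the level was 2038 to 4759 FPKM, over 8 stromal markers 282 to 934, and over 7 epithelial markers 121 to 1676, of which the tight junction gene Cldn3 was listed at 0 in all 12 libraries. The ovarian receptor gene Fshr was also listed at 0 throughout, but the other ovarian markers were not. Summed over 5 ovarian markers, Fshr among them, the level ran from 0.907 FPKM in CAS-E2 2 to 5.02 FPKM in SPI 1. In the SPI pools Inha had 1.84 to 2.59 FPKM and Star had 0.543 to 2.87 FPKM. Marker sums differed between pools of a group. CAS-E2 3 had 2038 FPKM of smooth muscle markers, against 3893 and 4759 in the other CAS-E2 pools. Its stromal sum was 357 FPKM, against 821 and 543 in those pools. Leaving out a pair of libraries together, SPI 1 and SPI-E2 1, was not planned at the start. SPI 1 had a summed level of 1411 FPKM over 7 liver markers, against 11.2 to 275 in the other 11 libraries, and SPI-E2 1 had 480 FPKM of epithelial markers, against 1663 and 1676 in the other SPI-E2 pools. For the members other than Rbp2, values without these libraries are given beside the changes under E2 on soy, and beside the calls that they change. For genes that are not members, such as Rbp7, Dhrs9, Tgm2 and Meis2, no such values are given.

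Rbp4, the gene of the plasma retinol carrier, lies on chr1:242443795-242450997 (rn4, the build of the files, minus strand, 6 exons). Its level was 29.3, 24.7 and 29.4 FPKM in the CAS pools and 10.004, 12.6 and 10.5 FPKM in the CAS-E2 pools. It was 157, 75.3 and 15.6 FPKM in the SPI pools and 12.9, 6.60 and 15.1 FPKM in the SPI-E2 pools. The SPI pools were thus spread from below to above all CAS pools, while the E2 pools of both diets lay below every pool without E2. In SPI-E2 Rbp4 was lower than in SPI, with a difference of -2.29 (SE 0.60, adjusted p = 0.0167). With only the 2 groups of that comparison in the fit the adjusted p was 0.0833, without SPI 2 it was 0.0637, and without SPI-E2 2 it was 0.0778. Without SPI 1 the difference was -1.58 (adjusted p = 0.0488), and without both SPI 1 and SPI-E2 1 it was -1.69 (adjusted p = 0.0384). In CAS-E2 against CAS the difference was -1.26 (SE 0.60, adjusted p = 0.117), which did not pass, although the pools did not overlap. The same difference had an adjusted p of 0.000467 when fitted on those 2 groups alone, where the wide SPI pools do not enter the error, and of 0.0482 without SPI 1 and 0.00974 without SPI 3. In SPI against CAS the difference was 1.03 with a 95% interval of -0.29 to 2.34 (adjusted p = 0.473), and without SPI 1 and SPI-E2 1 it was 0.31.

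Rbp4 is made by liver and by fat, and markers of both moved among the SPI pools. The summed level of 8 adipocyte markers, none at 0 in every library, was 676, 444 and 118 FPKM in SPI 1, 2 and 3, the same order as Rbp4, against 87.3 to 173 FPKM in CAS. The liver sum was 1411, 11.2 and 31.7 FPKM in those pools, so SPI 2, with 75.3 FPKM of Rbp4, had the lowest liver sum of the 12 libraries. In CAS-E2 1 the adipocyte sum was 608 FPKM, of which Cfd, Fabp4 and Adipoq gave 325, 124 and 108 FPKM, and Rbp4 was at 10.004 FPKM. The markers in that sum went different ways under E2. Adipoq, the gene of the fat hormone adiponectin, was higher in CAS-E2 (109 ± 21.0 FPKM) than in CAS (18.01 ± 7.08 FPKM, adjusted p = 0.00782). In SPI-E2 against SPI, where Rbp4 was lower, the median of the 8 markers was -1.67. Retn was lower there (-1.91, adjusted p = 0.0286), Plin1, Lep, Cidec and Lpl were below 0 and Adipoq above 0 at unadjusted p under 0.05 without passing the test, and Fabp4 and Cfd were not. By limma 0 of the 8 adipocyte and 0 of the 7 liver markers passed the test in SPI against CAS, and 2 and 0 had an unadjusted p under 0.05. What part fat or liver RNA had in the Rbp4 values was not tested. The 5 genes whose log2 level ran closest to Rbp4 over the 12 libraries were Marc1 (Pearson r = 0.97), Mgst1 (0.96), Elovl6 (0.95), Thrsp (0.94) and Dgat2 (0.94). Dgat2 makes triglyceride and Elovl6 lengthens fatty acids. These correlations are descriptions over 4 groups of pools, and the pools of a group share their treatment.

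Stra6, the receptor that takes retinol from RBP4 into the cell (chr8:61920765-61939791, plus strand, 18 exons), was the lowest of the 8 wherever Rbp2 was present. It had 4.72, 3.60 and 3.24 FPKM in CAS, and 1.22, 2.34 and 2.38 FPKM in CAS-E2. The SPI pools had 1.54, 3.30 and 2.71 FPKM and the SPI-E2 pools 2.56, 1.45 and 1.58 FPKM, and these overlapped. In CAS-E2 against CAS the pools did not overlap, and the difference of -0.72 (SE 0.24, adjusted p = 0.0332) was past the adjusted p but under 2-fold. On soy it was -0.28 (adjusted p = 0.394). Without SPI 1 it was -0.50 (adjusted p = 0.153), without SPI-E2 1 it was -0.45 (adjusted p = 0.172), and without both it was -0.67 (adjusted p = 0.0442), past the adjusted p but under 2-fold.

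**Figure D2:**
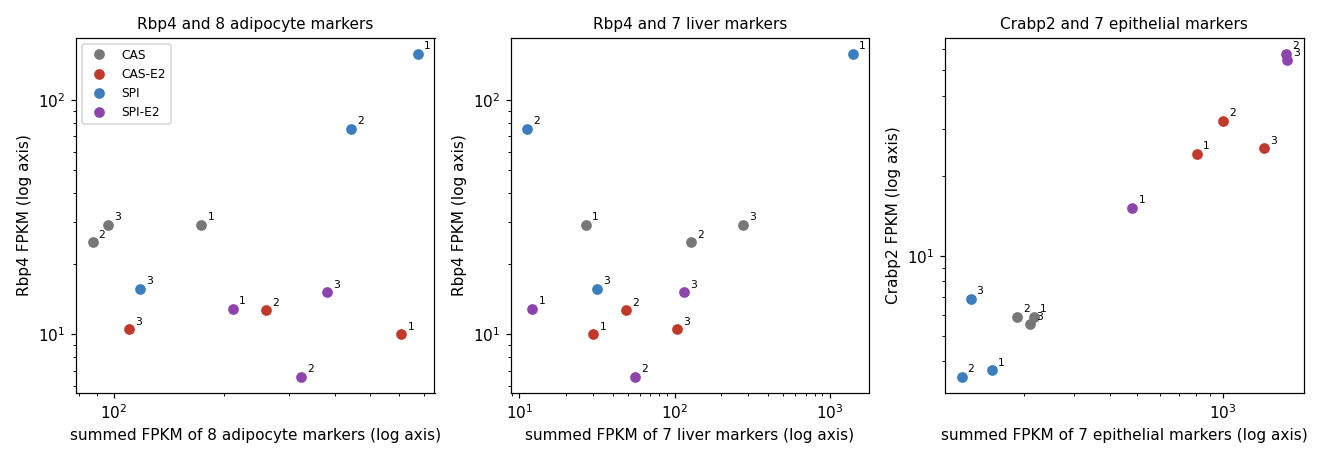
Each point is 1 of the 12 pools, coloured by group and numbered by replicate, with both axes logarithmic and in FPKM. The left and middle panels set Rbp4 against the summed adipocyte and liver markers, where SPI 1 stands at the top right of both and SPI 2 is high only against the adipocyte sum. The right panel sets Crabp2 against the summed epithelial markers, where the E2 pools lie above 480 FPKM on the x axis and no pool without E2 lies above 217.

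Rbp2 encodes a cellular retinol-binding protein best known from the absorptive cells of the small intestine. It lies on chr8:103665461-103685770 (rn4, plus strand, 4 exons). It was listed at 0 in all 3 CAS and all 3 SPI pools. With E2 it had 5.74, 5.53 and 10.4 FPKM on casein and 5.03, 16.7 and 23.9 FPKM on soy. Cufflinks' own 95% interval on the lowest of these, SPI-E2 1, was 2.59 to 7.48 FPKM, and on the highest, SPI-E2 3, it was 18.4 to 29.5 FPKM. Because the groups without E2 are at 0, no fold is given, and because it entered the test only through the E2 pools, no p is given for E2 in either diet. Between the E2 groups the pools overlapped and the difference had an adjusted p of 0.89. The means, 7.21 ± 2.73 FPKM in CAS-E2 and 15.2 ± 9.54 FPKM in SPI-E2 (SD, n = 3), made Rbp2 the 5th highest of the 8 genes in CAS-E2 and the 3rd in SPI-E2, where without E2 it was the last. Among the genes of the table whose log2 level ran closest to it were Ntsr1, Padi1, Avp and Lpcat4 (r = 0.99 each, 12 libraries).

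Of the other genes that hold or store retinol in the cell, Rbp7 and Lrat are described here. Rbp7, a form known from adipose and vascular tissue, was lower in SPI-E2 than in SPI (-1.37, SE 0.33, adjusted p = 0.0111): its pools had 10.3, 6.40 and 5.29 FPKM in SPI and 1.64, 1.50 and 3.54 FPKM in SPI-E2. Lrat, the enzyme that stores retinol as esters, had 0.551, 0.457 and 0.338 FPKM in CAS and 2.66, 2.80 and 2.13 FPKM in CAS-E2. On soy it had 0.462, 0.779 and 0.528 FPKM in SPI and 1.05, 2.27 and 2.35 FPKM in SPI-E2. Like Rbp2 it passed the filter only through the E2 libraries, so no test of it is given.

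The upstream 250 bases of 3 genes are printed because these genes stand for the 3 patterns under E2 on casein: Rbp2 listed at 0 without E2, Crabp2 higher with E2 and Crabp1 lower. They are from RefSeq on the GRCr8 build (the files use rn4), 5′ to 3′ on the gene's strand and ending at the base before the annotated start. Capitals mark matches, on either strand, to 4 motifs: the receptor half-site AGGTCA, its other form AGTTCA, the TATA box TATAAA and the GC box GGGCGG.
Rbp2 promoter, chr8:107963292-107963541, plus strand: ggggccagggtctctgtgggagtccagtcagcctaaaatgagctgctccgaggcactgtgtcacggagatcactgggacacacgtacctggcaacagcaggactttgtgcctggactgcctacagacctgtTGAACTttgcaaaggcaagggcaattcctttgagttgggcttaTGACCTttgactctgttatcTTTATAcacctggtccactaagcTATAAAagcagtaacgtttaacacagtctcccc
Crabp2 promoter, chr2:175714612-175714861, plus strand: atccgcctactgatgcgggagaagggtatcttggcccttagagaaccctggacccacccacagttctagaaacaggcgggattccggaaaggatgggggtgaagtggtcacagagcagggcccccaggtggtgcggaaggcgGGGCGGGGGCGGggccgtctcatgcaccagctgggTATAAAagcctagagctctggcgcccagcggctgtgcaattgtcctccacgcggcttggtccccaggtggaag
Crabp1 promoter, chr8:64047181-64047430, plus strand: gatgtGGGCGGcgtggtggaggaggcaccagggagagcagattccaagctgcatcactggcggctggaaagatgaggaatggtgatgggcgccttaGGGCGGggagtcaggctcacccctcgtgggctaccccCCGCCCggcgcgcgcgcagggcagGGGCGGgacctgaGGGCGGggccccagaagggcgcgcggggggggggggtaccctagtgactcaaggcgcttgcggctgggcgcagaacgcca

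In the Rbp2 window the AGGTCA half-site begins at base -76 and AGTTCA at base -119, counted back from the start, both on the minus strand. TATAAA begins there at base -33 on the plus strand and at base -56 on the minus strand. The Crabp2 window holds TATAAA from base -73 and adjacent GC boxes from -108 and -102. The Crabp1 window holds 5 GC boxes and none of the other 3 motifs. Of the 9 named genes, all of which have a window, 1 held AGGTCA, 2 AGTTCA, 3 TATAAA and 4 GGGCGG, where 14.1%, 12.2%, 12.9% and 30.5% of the 33469 windows of all genes did. No member window held the full estrogen response element GGTCANNNTGACC (0.0239% of all windows) or the retinoic acid element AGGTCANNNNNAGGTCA (0.00896%). Crabp1 was the richest of the 3 in G and C, with 71.6% and 21 CpG, followed by Crabp2 with 63.2% and 13 and Rbp2 with 50.8% and 4. The median of all windows was 51.2% and 5 CpG. A match is a run of letters and not a shown binding site.

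Crabp2 (chr2:180029801-180034147, plus strand, 4 exons) encodes the binding protein that hands retinoic acid to its receptor in the nucleus. Its level was 5.90, 5.87 and 5.53 FPKM in CAS and 24.2, 32.1 and 25.4 FPKM in CAS-E2. In SPI it was 3.70, 3.50 and 6.90 FPKM, and in SPI-E2 15.2, 57.4 and 54.4 FPKM. All 6 pools with E2 lay above all 6 without, and SPI-E2 1 was the lowest of them. The rise was 2.05 on casein (SE 0.40, adjusted p = 0.00284) and 2.76 on soy (SE 0.40, adjusted p = 0.00105), and averaged over the diets it was 2.41 (SE 0.29, adjusted p = 8.02e-05). Without SPI-E2 1 the rise on soy was 3.37, without SPI 1 it was 2.65, and without both it was 3.25, all past the test. Soy without E2 differed from CAS by -0.30 (adjusted p = 0.771). Crabp2 was the gene of the 8 that ran closest to Rbp2 over the libraries (r = 0.97, 12 libraries), and the genes of the whole table closest to it were Gabrp, Gch1, Sema4a, Capn1 and Gzf1 (r = 0.99 each).

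Crabp1 (chr8:58317337-58325375, plus strand, 4 exons), the other cellular retinoic acid-binding protein, ran the opposite way on casein. It had 20.4, 25.3 and 15.95 FPKM in CAS and 4.73, 6.54 and 7.47 FPKM in CAS-E2, a difference of -1.57 (SE 0.29, adjusted p = 0.00217). On soy the pools overlapped, with 11.2, 8.56 and 17.96 FPKM in SPI and 17.1, 10.4 and 8.42 FPKM in SPI-E2, and the difference was -0.06 with a 95% interval of -0.70 to 0.58 (adjusted p = 0.893). It was -0.11 without SPI 1, -0.33 without SPI-E2 1 and -0.38 without both, none past the test. Every SPI-E2 pool was above every CAS-E2 pool, with a difference of 0.80 (95% interval 0.16 to 1.44, adjusted p = 0.738). The E2 effect on Crabp1 differed between the diets by 1.51 (SE 0.42, unadjusted p = 0.00351), but the adjusted p was 0.189. The closest genes were Tead2 (r = 0.97), Ngef (0.95), Tcfe2a (0.94), Slx1b and Ubqln4 (0.93 each).

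Within each library the ratio of Crabp2 to Crabp1 turned over. It was 0.232 to 0.346 in CAS and 3.40 to 5.11 in CAS-E2, so that Crabp1 was the higher of the pair without E2 and Crabp2 with it. In SPI the ratio was 0.33 to 0.41, and in SPI-E2 it was 0.887, 5.51 and 6.46, with SPI-E2 1 the only E2 pool in which Crabp1 was still above Crabp2.

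**Figure D3:**
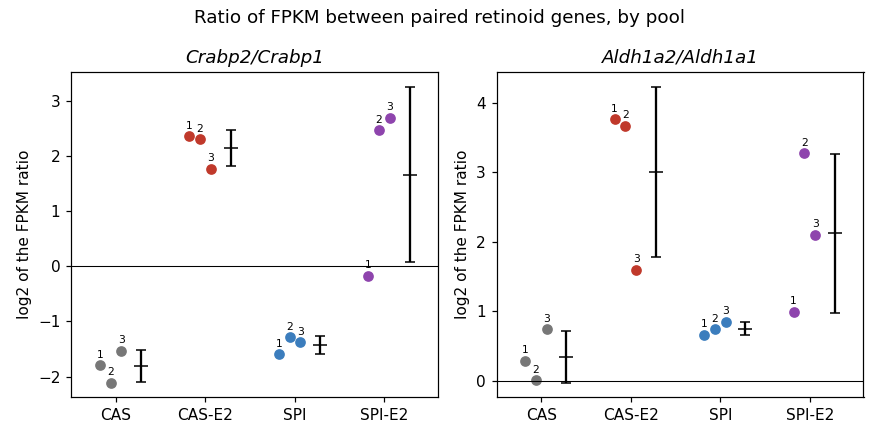
The log2 of the ratio of FPKM between paired genes (y axis) in each of 12 pools by group (x axis), with the mean and SD of 3 pools in black. Crabp2/Crabp1 lies below 0 in all pools without E2 and above 0 in 5 of 6 pools with it, the exception being SPI-E2 1. Aldh1a2/Aldh1a1 lies above 0 in all 12 pools and is highest in CAS-E2 1 and 2.

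Aldh1a2 and Aldh1a1 encode retinal dehydrogenases, which make retinoic acid from retinal, and they also went opposite ways. Aldh1a2 (chr8:75692099-75771159, plus strand, 14 exons), the form known from uterine stroma and embryonic mesoderm, had 14.3, 11.7 and 12.3 FPKM in CAS and 37.1, 41.0 and 17.5 FPKM in CAS-E2. It rose by 1.17 (SE 0.30, adjusted p = 0.0094). Without CAS-E2 2 the rise was 0.95 (adjusted p = 0.0409), under 2-fold. The SPI pools had 12.6, 10.9 and 11.4 FPKM and the SPI-E2 pools 14.9, 29.8 and 20.2 FPKM, which did not overlap, but the difference of 0.79 (SE 0.30, adjusted p = 0.0658) did not pass the test. Without SPI-E2 1, the lowest of those pools, it was 1.02 (adjusted p = 0.0199), without SPI 1 it was 0.84 (adjusted p = 0.101), and without both it was 1.07 (adjusted p = 0.0318). The genes closest to Aldh1a2 were Ltbp2 and Kcnf1 (r = 0.99), and B4galt1, Nppc and Igsf11 (r = 0.98).

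Aldh1a1 (chr1:223731675-223773285, plus strand, 13 exons) has a close copy, Aldh1a7, 49251 bases away. Short reads may be shared between them, and its values are uncertain to that extent. It had 11.7, 11.7 and 7.39 FPKM in CAS and 2.74, 3.22 and 5.78 FPKM in CAS-E2, a difference of -1.22 (SE 0.29, adjusted p = 0.00657). On soy it had 7.996, 6.52 and 6.33 FPKM in SPI and 7.51, 3.08 and 4.70 FPKM in SPI-E2. These overlapped, and the difference was -0.44 (95% interval -1.06 to 0.18, adjusted p = 0.267). Without SPI-E2 1 it was -0.71 (adjusted p = 0.0553), without SPI 1 it was -0.35 (adjusted p = 0.468), and without both it was -0.62 (adjusted p = 0.131). The ratio of Aldh1a2 to Aldh1a1 was 1.004 to 1.67 in CAS and 13.6, 12.7 and 3.02 in CAS-E2. It was 1.58 to 1.81 in SPI and 1.99, 9.66 and 4.30 in SPI-E2, where again SPI-E2 1 was nearest to the pools without E2. Over the libraries the log2 levels of these genes ran against each other (r = -0.85, 12 libraries). The genes closest to Aldh1a1 were Ptprr (r = 0.96), Hp1bp3, Bex1, Pink1 (0.94 each) and Tpd52l1 (0.93).

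Rara (chr10:87740479-87753265, plus strand, 8 exons), the gene of the retinoic acid receptor alpha, moved the least of the 8 under E2 on casein. It had 12.7, 11.4 and 11.1 FPKM in CAS and 12.5, 11.8 and 11.7 FPKM in CAS-E2, a difference of 0.03 (95% interval -0.26 to 0.32, adjusted p = 0.872). The SPI pools had 8.29, 8.80 and 10.2 FPKM, all below the CAS pools, and the SPI-E2 pools had 12.2, 15.7 and 15.2 FPKM, all above the SPI pools. SPI differed from CAS by -0.34 (SE 0.13, adjusted p = 0.346), where the median of all genes was -0.16 and 30.8% of all genes lay lower without overlap. SPI-E2 differed from SPI by 0.61 (SE 0.13, adjusted p = 0.00781), past the adjusted p but under 2-fold, where the median of all genes was 0.11. It was 0.55 without SPI 1, 0.71 without SPI-E2 1 and 0.65 without both, each still under 2-fold. Of the other nuclear receptors of the pathway list, 4 were tested and none was called under E2 in either diet, and all 4 are named here after their values were seen. On casein Rarg had 9.54 ± 0.712 FPKM in CAS and 6.66 ± 0.528 in CAS-E2 (-0.46, adjusted p = 0.0156), and Rxrb had 13.4 ± 2.38 and 6.49 ± 0.414 FPKM (-0.93, adjusted p = 0.00535), both under 2-fold. Rxra had 11.6 ± 0.831 FPKM in CAS and 10.8 ± 2.24 in CAS-E2 (-0.10, adjusted p = 0.649), and Ppard, which can also bind retinoic acid, had 5.99 ± 0.637 and 7.38 ± 0.443 FPKM (0.27, adjusted p = 0.204). On soy the differences were -0.07 for Rarg, -0.41 for Rxrb, 0.12 for Rxra and 0.74 for Ppard, of which that of Ppard was past the adjusted p (0.00678). The ratio of Rarg to Rara was 0.799 to 0.829 in CAS and 0.523 to 0.572 in CAS-E2.

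**Figure D4:**
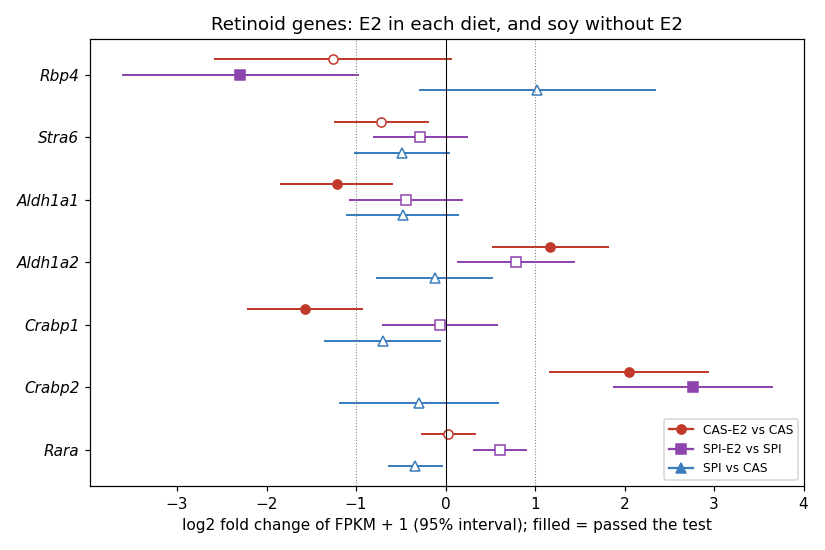
Log2 fold change of FPKM + 1 (x axis) with its 95% interval for 7 of the genes (y axis), in CAS-E2 against CAS, SPI-E2 against SPI and SPI against CAS. Filled symbols passed both the adjusted p and the 2-fold cutoff (dotted lines), and Rbp2 is left out because its groups without E2 are at 0. Crabp2 is filled in both E2 comparisons, Rbp4 only on soy, Crabp1, Aldh1a1 and Aldh1a2 only on casein, and no soy-only symbol is filled.

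Markers of the tissue layers moved with E2 beside these genes. Of 6 epithelial markers tested, 5 were higher in CAS-E2 than in CAS and 6 in SPI-E2 than in SPI, and their sum went from 190 to 217 FPKM in CAS to 809 to 1389 FPKM in CAS-E2, and from 121 to 154 FPKM in SPI to 480 to 1676 FPKM in SPI-E2. Of 8 stromal markers, 3 and 6 were lower, with sums of 744 to 934 FPKM in CAS and 357 to 821 in CAS-E2, and of 774 to 921 in SPI and 282 to 711 in SPI-E2. Of 5 macrophage markers tested, 3 were higher in CAS-E2 and 2 in SPI-E2. Of 5 endothelial markers 3 and 1 were lower, and of 3 mesothelial markers 2 and 0. Of 7 smooth muscle markers 0 were called by limma in either diet, with 3 at an unadjusted p under 0.05 in each. SPI-E2 1 had the lowest epithelial sum of the E2 pools and the lowest Rbp2 and Crabp2. In whole uterus, fewer cells of a type and less RNA per cell cannot be told apart, and the part of these markers in the changes of the retinoid genes was not tested.

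Soy moved none of the 8 past the test, either without E2 or with it. In SPI against CAS 0 of 8 were called, as against 0.0195% of all genes, and limma gave 2 an unadjusted p under 0.05, Crabp1 (-0.70, adjusted p = 0.356) and Rara. In SPI-E2 against CAS-E2 0 of 8 were called (0.00973% of all genes), with 1 unadjusted p under 0.05, that of Crabp1. For the difference of the E2 effect between the diets it was 0 of 8 and 0% of all genes, with 2 unadjusted p under 0.05, Crabp1 and Rara (0.57, adjusted p = 0.223). The interval for Crabp2 in that test was -0.53 to 1.96 and for Rbp4 -2.89 to 0.83, so differences of more than 2-fold between the diets cannot be told from none for these genes. Without SPI-E2 1 the difference for Crabp2 was 1.32 (adjusted p = 0.0599), and without SPI 1 that for Rbp4 was -0.32. Against CAS, SPI-E2 had 2 of 8 higher (1 of 7 without Rbp2), Rbp2 and Crabp2 (2.47, SE 0.40, adjusted p = 0.00204), and 0 lower, where 10.7% of all genes were called (6.84% higher and 3.89% lower). That comparison shares its CAS pools with CAS-E2 against CAS. Without SPI-E2 1, Aldh1a1 (-1.20, adjusted p = 0.00500) and Crabp1 (-1.03, adjusted p = 0.0135) were also lower in it, as was Aldh1a1 without CAS 3 (-1.12, adjusted p = 0.0324) and Rbp4 without SPI 3 (-1.27, adjusted p = 0.0141). Averaged over both diets, E2 left 2 of 8 higher (1 of 7 without Rbp2), again Rbp2 and Crabp2, and 1 lower, Rbp4 (-1.78, SE 0.43, adjusted p = 0.00491), against 11.1% of all genes (7.76% and 3.37%). The other 5 had adjusted p under 0.05 with changes under 2-fold, of which Aldh1a2 (0.98) and Aldh1a1 (-0.83) were the farthest from 0. Aldh1a2 passed 2-fold there when any of CAS 1, CAS-E2 3, SPI 1 or SPI-E2 1 was left out (1.02, 1.16, 1.01 and 1.09). These are among the 10 of 23 alternative settings in which it was called, so its status there is not settled.

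Pools that did not overlap were counted as well. In CAS-E2 against CAS 3 genes lay higher (Rbp2, Crabp2 and Aldh1a2) and 4 lower (Rbp4, Crabp1, Stra6 and Aldh1a1), where 23.9% and 31.2% of all genes did. In SPI-E2 against SPI 4 lay higher (Rbp2, Crabp2, Aldh1a2 and Rara) and 1 lower (Rbp4), where 30.1% and 11.2% did. In SPI-E2 against CAS 3 lay higher and 2 lower (19.3% and 24.3% of all genes), in SPI against CAS 0 and 1 (1.97% and 30.8%), and in SPI-E2 against CAS-E2 1 and 0 (4.47% and 2.53%). Rara was the 1 gene lower in SPI and Crabp1 the 1 higher in SPI-E2 than in CAS-E2. Rbp2 is among the higher genes wherever an E2 group is set against a group without E2. It is at 0 without E2 and was tested only through its E2 pools, so its place in these counts is no support.

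The order of the levels changed with E2. In CAS it ran from Rbp4 (27.8 ± 2.68 FPKM) and Crabp1 (20.6 ± 4.69) through Aldh1a2 (12.8 ± 1.34), Rara (11.7 ± 0.887) and Aldh1a1 (10.25 ± 2.48) to Crabp2 (5.77 ± 0.209), Stra6 (3.85 ± 0.772) and Rbp2 (SD, n = 3). SPI kept this order of means, from Rbp4 at 82.6 ± 70.9 FPKM and Crabp1 at 12.6 ± 4.85 down to Crabp2 at 4.70 ± 1.90 and Stra6 at 2.52 ± 0.898. In CAS-E2 Aldh1a2 (31.9 ± 12.6) and Crabp2 (27.2 ± 4.27) stood first, and in SPI-E2 Crabp2 (42.3 ± 23.6) and Aldh1a2 (21.6 ± 7.52). The pools of Aldh1a2 and Crabp2 overlapped within each E2 group, so their order there is not set.

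Beyond these genes, a list of 36 other genes of the retinoid pathway was followed, of which 32 have a row and 21 were tested. In CAS-E2 against CAS 2 were higher and 1 lower, which is 14.3% of the 21 beside 14.4% of all genes, with a median difference of -0.36 over the 21 against -0.07 over all genes. In SPI-E2 against SPI 1 was higher and 1 lower, which is 9.52% beside 10.2% of all genes, with a median of -0.07 against 0.11. The list was thus called about as often as all genes. Lrat and Bco2 would not have passed the filter on the libraries without E2 alone. Cyp26b1, Aldh1a3 and Rdh7 would not have passed it on those with E2 alone. The shares and medians of the list include these genes, so they are descriptions and no test of the list. The gene with the highest change was Dhrs9, a dehydrogenase able to oxidise retinol to retinal. It had 3.06 ± 0.829 FPKM in CAS and 43.3, 59.3 and 61.3 FPKM in CAS-E2 (3.78, SE 0.36, adjusted p = 7.63e-05). On soy it had 3.17 ± 0.451 FPKM in SPI and 26.1, 68.3 and 89.5 FPKM in SPI-E2 (3.74, SE 0.36, adjusted p = 0.000115). On soy its pools of E2 rats spread widely, with SPI-E2 1 the lowest. Dhrs3, which reduces retinal back to retinol, went down on casein, from 26.3, 25.9 and 30.4 FPKM in CAS to 12.3, 14.6 and 10.6 FPKM in CAS-E2 (-1.09, SE 0.17, adjusted p = 0.00102). On soy it went from 16.6, 17.0 and 16.4 FPKM to 12.04, 11.8 and 7.70 FPKM, a difference of -0.64 (adjusted p = 0.0197) under 2-fold. Rbp7 and Lrat, given above, were the other genes called, and the call of Lrat on casein is no support, for the reason given there. The alcohol dehydrogenase gene Adh1, named after its values were seen, had 7.11 ± 0.170 FPKM in CAS and 14.2 ± 0.761 in CAS-E2 (0.90, adjusted p = 0.00462), and 8.46 ± 3.19 FPKM in SPI and 6.55 ± 1.04 in SPI-E2 (-0.28, adjusted p = 0.299), and its E2 effect did not differ between the diets past the test (adjusted p = 0.175).

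**Figure D5:**
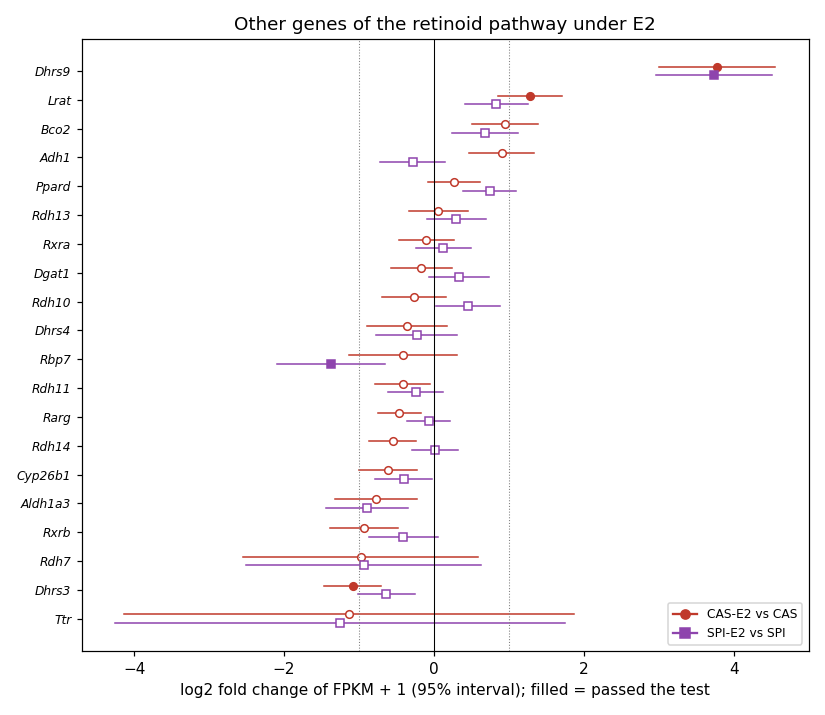
Log2 fold change of FPKM + 1 (x axis) with its 95% interval for 20 of the other retinoid pathway genes tested (y axis), in CAS-E2 against CAS (circles) and SPI-E2 against SPI (squares), ordered by the former. Filled symbols passed both cutoffs: Dhrs9 in both comparisons, Lrat and Dhrs3 on casein and Rbp7 on soy, though Lrat entered the test only through its E2 pools. The interval of Ttr, the plasma partner of RBP4 and a liver gene, is the widest.

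Genes known to answer to retinoic acid went both ways. Of 20 listed, 18 have a row and 15 were tested, and this list shares genes with the pathway list, among them Lrat, Dhrs3, Cyp26a1 and Cyp26b1. In CAS-E2 against CAS 3 were higher, Lrat among them, and 4 lower, Pdk4 among them. Of all genes 7.99% were higher and 6.37% lower, and the median difference was -0.66 over the list against -0.07 over all genes. In SPI-E2 against SPI 2 were higher and 1 lower, where 8.39% and 1.86% of all genes were, and the median was -0.41 against 0.11. The list includes Lrat, which passed the filter only through libraries with E2. It also includes Cyp26b1, Hoxd4 and Pdk4, which would not have passed on the libraries with E2 alone. Its counts and medians are therefore descriptions and no test of the list. Tgm2, tissue transglutaminase, had 169, 183 and 197 FPKM in CAS and 452, 462 and 501 FPKM in CAS-E2 (1.36, SE 0.37, adjusted p = 0.0132), and 145, 104 and 112 FPKM in SPI and 267, 964 and 774 FPKM in SPI-E2 (2.28, SE 0.37, adjusted p = 0.00172). Rarres1, named for its induction by retinoids, went from 14.2 ± 2.80 to 64.0 ± 24.0 FPKM on casein and from 13.3 ± 0.174 to 62.8 ± 27.0 FPKM on soy, and rose by 2.05 and 2.04 (adjusted p = 0.00111 and 0.00183). The homeobox gene Meis2 went down on both diets, from 42.7 ± 3.37 to 9.33 ± 0.790 FPKM on casein (-2.08, adjusted p = 0.000959) and from 34.8 ± 2.27 to 14.1 ± 10.2 FPKM on soy (-1.44, adjusted p = 0.00885). On casein the transcription factor gene Gata6 (-1.01, adjusted p = 0.00700) was also lower. Pdk4, a kinase that restrains the use of glucose, had 3.41, 3.15 and 3.35 FPKM in CAS and 1.80, 0.985 and 0.603 FPKM in CAS-E2. It would not have passed the filter on its libraries with E2 alone, so its call on casein is no support. Cyp26b1, which breaks down retinoic acid, had 1.76, 1.52 and 1.12 FPKM in CAS and 0.855, 0.604 and 0.373 FPKM in CAS-E2. It passed the filter only through libraries without E2, so no test of it is given. It is named after its values were seen. The estrogen receptor gene Esr1 was lower in CAS-E2 than in CAS (-1.15, adjusted p = 0.00461), and its difference on soy was -0.30 (adjusted p = 0.393).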

How the data were processed

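Uterine RNA pools were sequenced by the authors as 36-base single reads from a library kit that does not mark strand. They aligned the reads to rn4 with TopHat2 2.0.9 and Bowtie2 2.1.0 and estimated transcript FPKM with Cufflinks 2.1.1. CASAVA 1.7 is named in the submitters' processing notes too. FPKM and coverage were deposited as attributes of each transcript among other fields. Depth was taken from the ratio of coverage to FPKM, and no read counts were used.

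FPKM were summed per gene symbol. Genes reaching an FPKM of 1 in 3 or more libraries were fitted on log2(FPKM + 1) with limma 3.58.1 (R 4.3.3, variance trend, 4 group means). The code was first run on simulated data with independent noise and the same spread of a gene in every group. That run cannot show how the test behaves where the groups differ in spread, as for Rbp4 in SPI. The study tested with Cuffdiff, which needs the reads. Tables used Python 3.11.15, pandas 2.3.3 and matplotlib 3.10.9. Pools are the replicates, and intervals cover the spread between pools, except those written by Cufflinks, which cover its estimate within 1 library. The members, lists and tests were chosen with earlier results of these data known. Genes named are all members, the other list genes called under E2 within a diet, Esr1, and the 5 genes most like each called member by Pearson r of log2(FPKM + 1); other genes were named after their values were seen. A few genes picked by this rule are left out of the text. The authors' replicate numbers come from the labels. Deviations of same-numbered CAS-E2 and SPI-E2 libraries correlated at 0.27, 0.12 and 0.34, while same-numbered libraries of other groups gave -0.26 to 0.15. Libraries with different numbers were not compared, so whether the numbers pair the libraries was not tested. Alternatives were other pseudocounts, filters, scalings, fits, cutoffs, a replicate block and omitted libraries. Promoters came from RefSeq (GRCr8), where all 9 names matched.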

Additional observations from a re-analysis of the deposited data

How the results depend on the processing

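The calls of Crabp2, Crabp1 and Aldh1a1 in CAS-E2 against CAS held under all 24 alternatives. The number of members lower in SPI-E2 against CAS was 0 in the fit reported, 1 with only the groups compared, and 2 with a pseudocount of 0.1, array weights, the adjusted p alone, a 2-fold ratio of mean FPKM or without SPI 1 and SPI-E2 1, and it ranged from 0 to 2 with each library left out. Lower members in SPI-E2 against SPI went from 1 to 0 with only the groups compared and ranged from 0 to 1 with each library left out. For E2 averaged over both diets, 4 were higher and 4 lower by the adjusted p alone, and 3 lower with array weights. With array weights 1 member, Rbp2, was called with a higher E2 effect on soy than on casein, where none was otherwise. Rbp2 is at 0 without E2 and entered the test only through the E2 pools, so this call is no support. The causes of these moves were not tested. Counts of called members otherwise stayed within 1.5 times.

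Only uncalled differences changed sign. Rara in CAS-E2 against CAS was -0.0067 to 0.087 with each library left out. Aldh1a2 in SPI against CAS was 0.065 with median-ratio scaling, which took the median of all genes from -0.16 to -0.01 there. Crabp1 in SPI-E2 against SPI was -0.33 to 0.21 with each library left out. In SPI-E2 against CAS-E2, Rbp4 was -0.22 to 0.32 and Stra6 -0.25 to 0.053 with each library left out. Blocking on the replicate number changed no member's call. Rbp4 in SPI-E2 against SPI stayed at -2.29 (adjusted p = 0.0204), and 0 members were called in SPI-E2 against CAS-E2. With 3 pools a group and at most 9862180 reads a library, changes of genes at a few FPKM, such as Stra6, are uncertain. A higher level did not make a change certain. Rbp4 spread from 15.6 to 157 FPKM among the SPI pools, and its calls moved with the libraries left out.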
